A study of Homo sapiens with 9 samples.

Results

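SmcHD1, the product of the SMCHD1 gene, belongs to the SMC family of chromosome-organising proteins, in which it is an unusual member. It is best known for its part in keeping genes silent on the inactive X chromosome, and it also represses clustered autosomal genes such as the protocadherins and some imprinted genes. A short hairpin RNA (shRNA) is cut by the cell into a short duplex, 1 strand of which lowers transcripts that it pairs with. A hairpin can also lower transcripts that match it only in part, which is why knock-down studies use more than 1 hairpin. Here the hairpin called shRNA 3 was examined against the control hairpin NC5, and every gene that set it apart was read against a second hairpin, shRNA 4.

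The cells were HEK293, a line derived from human embryonic kidney. They were infected with a retrovirus that carried shRNA 3 (KD3) or shRNA 4 (KD4), both directed to SmcHD1, or NC5 (CTL), and were selected as populations with puromycin. All groups thus share the vector, the infection procedure and the drug. Each hairpin was infected and selected separately, so an effect of the hairpin cannot be told apart from one of the infected population. Each group was measured on 3 one-color Agilent arrays, named biological triplicates in the methods, and the sources used here do not say whether they came from separate infections. The p-values then measure the spread between these arrays, which may be technical. The comparison used the 6 arrays of KD3 and CTL out of 9 in the series and all 42405 non-control probes. Of these, 32276 probes of 26862 genes were tested, because they stood clear of the background on all arrays of 1 group or more.

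The hairpins are shown because they are the only designed difference between the groups. In each, the capitals mark the arms that pair with each other, and the lower-case letters mark the flanks and the loop that all of them share.
KD3: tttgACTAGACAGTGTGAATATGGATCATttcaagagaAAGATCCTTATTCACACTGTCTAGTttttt
KD4: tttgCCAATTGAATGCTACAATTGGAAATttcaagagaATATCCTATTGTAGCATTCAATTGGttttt
CTL: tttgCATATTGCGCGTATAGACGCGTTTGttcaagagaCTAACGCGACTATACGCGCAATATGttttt
Each hairpin has 68 bases with arms of 25, of which 23 positions pair and 2 do not. Counted from 1 at the 5′ end of the first arm, with its base given first and then the base that would pair with the second arm, the unpaired positions were T18A and A24T in KD3, T19A and A23T in KD4, and A17T and T24A in CTL. The first arms of KD3 and KD4 carried the same base at 11 of 25 positions, and those of KD3 and CTL at 9. Bases 2 to 8 of the second arm matched the seed of 0 human mature miRNAs in RefSeq for any of the 3 hairpins.

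Median processed signals ran from 119.6 to 181.4 over the arrays, 75.1% to 79.8% of probes exceeded the background, and 0 spots were saturated. All 12 markers of HEK293 cells were well above background on every array of KD3 and CTL. Of these, PAX2 (log2 difference -2.41), NEFM (-1.21) and ENO2 (-0.90) fell in KD3 and WT1 rose (1.01), while 0 markers of endothelial, erythroid, fibroblast, hepatocyte or leukocyte cells were called in either direction. The arrays lay on 2 slides. Slide 2 held KD3 replicates 1 and 3, KD4 replicate 1 and CTL replicate 1, and slide 1 held the rest. A comparison within a slide therefore has 1 array in at least 1 of its groups, which was assumed to vary like the others, so within-slide values are given as sizes and counts.

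SMCHD1 was down-regulated by shRNA 3 on all 3 of its probes. On the brightest, the log2 normalized signal was 11.20, 11.37 and 11.22 on the CTL arrays, 10.40, 10.16 and 10.32 on the KD3 arrays, and 9.63, 9.80 and 9.77 on the KD4 arrays. The arrays of the 3 groups did not overlap. Over all genes tested, KD3 and CTL arrays did not overlap on the brightest probe of 35.7%. The log2 difference of KD3 from CTL was -0.97 with a standard error of 0.0897 (limma adjusted p = 0.000214). This left 51.0% of the CTL signal, and the other probes gave 49.1% and 51.0%. The exact permutation test of 3 arrays against 3 gave p = 0.1 (two-sided), the smallest p that it allows. Within slide 1 the difference was -1.136 and within slide 2 -0.842, the latter below the 1.8-fold required for a call. KD3 lay above KD4 on this probe by 0.56 on the log2 scale (limma adjusted p = 0.0195), also below that fold.

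**Figure D1:**
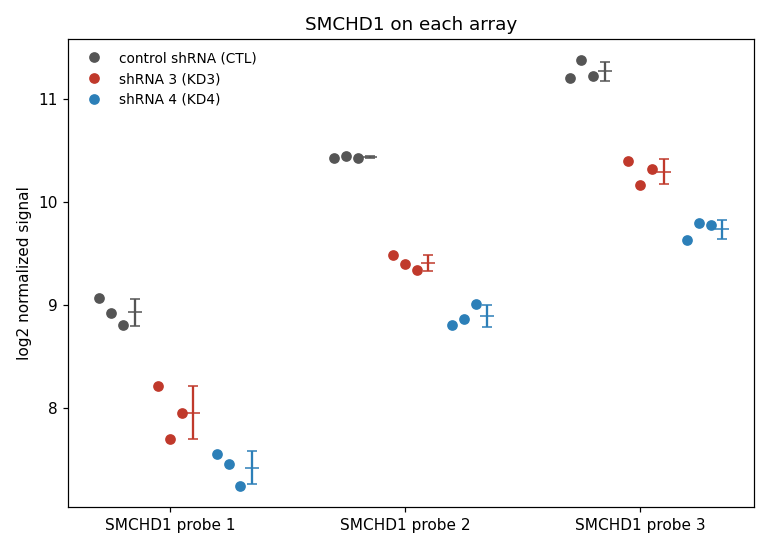
Log2 normalized signal of the 3 SMCHD1 probes on each array, with the mean and SD of 3 arrays beside the points. On each probe the KD3 arrays lie between the CTL and the KD4 arrays.

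Against CTL, shRNA 3 changed 987 genes, 3.67% of those tested, at an adjusted p under 0.05 from limma and a fold of at least 1.8. Of these, 334 rose (1.24% of the genes tested) and 653 fell (2.43%), so that 66.2% of the called genes were down-regulated. Several probes were tested for 225 of them, and in 61 each probe was called the same way. KD4 shared 712 of these genes in the same direction on the same probe, 72.1% of the KD3 genes and 52.0% of the 1369 genes called in KD4, and both hairpins were set against the same CTL arrays.

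The largest rises of probes above background on all arrays included X-linked and autosomal genes. MAGEH1, a MAGE family gene of the X chromosome, had a log2 signal of 3.83, 4.33 and 4.29 in CTL and of 8.02, 7.63 and 7.91 in KD3, a log2 difference of 3.70 (limma adjusted p = 4.23e-06). The X-linked SHROOM2, which codes for an actin-binding protein, rose by a log2 difference of 3.12 and CLCN4, a chloride-proton exchanger, by 3.11. NAP1L3 (2.93) and NAP1L2 (2.64), histone chaperone genes, WWC3 (2.36), SLITRK4 (2.36) and TENM1 (2.28), the last a teneurin of neuronal contacts, also rose on the X. Autosomal genes among the largest rises included PLAAT3 (3.31), KCND2 (2.38) and PLA2G4A (2.34). PLA2G4A codes for a cytosolic phospholipase A2, and PLAAT3 and KCND2 are described below, since they were also higher than in KD4. MAGEH1 rose further in KD4, by a log2 difference from CTL of 5.28. Its log2 difference of KD3 from KD4 was -1.58 (adjusted p = 0.00211 from limma). Some genes were dim on every CTL array. Among them UNC5D was at least 7.20-fold higher in KD3, SPANXN3 at least 5.81-fold, SPOCK3 at least 5.69-fold and FAM133A at least 5.51-fold. SPOCK3 was called lower in KD3 than in KD4 (log2 difference -1.61). The bound is the lowest detectable signal of each CTL array, or the signal of the probe if that is greater.

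The largest fall was read on GRIK3, a kainate receptor subunit, on 1 of its 3 probes. On that probe it dropped from 8.17, 8.56 and 8.42 in CTL to 4.58, 4.42 and 4.51 in KD3, a 14.7-fold difference (adjusted p = 2.33e-06 from limma). The other GRIK3 probes differed by much less, by -0.50 (adjusted p = 0.086 from limma, not called) and -0.93 (adjusted p = 0.0415 from limma) on the log2 scale. The log2 difference was -3.24 for CALCA, -3.21 for STRA6, the membrane receptor for the retinol carrier, -3.09 for VAT1L, -2.92 for IGFBP7, a secreted binding protein for insulin-like growth factors, and -2.75 for SERP2. It was -2.65 for IGSF21, -2.56 for the surface protein CD24, -2.52 for CGA, the alpha subunit of the glycoprotein hormones, -2.51 for SPINK4, -2.50 for the neuronal splicing factor RBFOX3 and -2.47 for PHF21B. Among these 12, GRIK3, CALCA and SPINK4 differed between the hairpins by the full criteria, with GRIK3 and CALCA lower in KD3 and SPINK4 lower in KD4. Among probes dim on every KD3 array, MYZAP was at least 9.88-fold lower, the integrin subunit ITGA4 at least 8.53-fold, NMI at least 8.42-fold, the prohormone convertase PCSK2 at least 7.98-fold and GPD2 at least 7.17-fold. The values of PHF21B, MYZAP, ITGA4 and GPD2 are from a probe that was not the brightest of its gene. ITGA4 fell by less on its brightest probe, given below.

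To find what shRNA 3 did and shRNA 4 did not, KD3 was compared with KD4 directly. The groups differed at 135 genes (0.503% of those tested), 76 higher (0.283%) and 59 lower (0.220%) in KD3. With scaling to the 75th percentile in place of quantile normalization the split was 43 higher and 104 lower, so the balance of directions depends on the scaling. Within slide 1 24 genes were called between the hairpins, and within slide 2 43. Of 268 genes called in KD3 and not in KD4 against CTL, 23 were also called between the hairpins. The remaining genes of that kind are not shown to differ between KD3 and KD4.

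The 135 genes fell into classes by where CTL lay. For 50, KD4 was called against CTL and KD3 was not. For 34, both hairpins had moved the gene in 1 direction and KD4 had moved it further, and for 5 KD3 had moved it further. KD3 stood apart from both CTL and KD4, with KD4 not called, at 24 genes, neither hairpin was called against CTL at 20, and 2 genes had moved in opposite directions. A signal near CTL in KD3 with a large one in KD4 was found for DCX, a microtubule-binding protein of migrating neurons. DCX read 5.28, 5.47 and 5.26 in CTL, 5.57, 5.59 and 5.80 in KD3, and 8.30, 8.36 and 8.33 in KD4.

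Genes called in KD3 against both CTL and KD4, in the same direction and on the same probe, numbered 31 (0.115% of those tested), 13 higher and 18 lower, and 27 of them carried a gene name. Both contrasts use the KD3 arrays, so they are not independent of each other. Scaling to the 75th percentile gave 13 higher and 32 lower. In the fits that left out 1 of the 9 arrays in turn, 15 of the 31 kept both calls every time. These were PTPRZ1, KCND2, PLAAT3, TSC22D3, NALCN, NTS, CALCA, LHFPL1, MATN4, MIEF1, SORCS1, BEX1, GRIK3, FAM111B and 1 long intergenic non-coding RNA (lincRNA) probe of chromosome 2. The other 16 lost a call in 1 to 6 of those fits. Within a slide, where at least 1 group has 1 array, most of the 31 lost a call. Among the 15, PTPRZ1, KCND2, PLAAT3, TSC22D3, NALCN, NTS, LHFPL1, SORCS1, BEX1, GRIK3 and FAM111B lost a call on both slides. With the normexp background correction 7 genes met the criteria.

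PTPRZ1, KCND2 and NALCN, which code for membrane proteins, were among the genes that rose. PTPRZ1, a receptor tyrosine phosphatase of the glia and their precursors, read 4.43, 4.54 and 4.03 in CTL, 6.33, 5.92 and 6.09 in KD3 and 3.90, 4.08 and 3.83 in KD4. It was 3.44-fold higher than in CTL (adjusted p = 0.000147 from limma) and 4.52-fold higher than in KD4 (adjusted p = 0.000511 from limma), and the KD3 arrays overlapped neither group. This gene and those below were chosen by calls against both groups, so separate arrays largely follow from the choice. For 35.7% of all genes KD3 and CTL arrays did not overlap. KCND2, a subunit of fast-inactivating voltage-gated potassium channels, read 4.22, 3.90 and 4.33 in CTL, 6.75, 6.45 and 6.39 in KD3 and 4.86, 4.90 and 5.02 in KD4. Its fold was 5.20 over CTL and 3.04 over KD4. NALCN, the sodium leak channel that sets the resting potential, read 6.59, 6.85 and 6.60 in CTL, 7.97, 8.25 and 8.05 in KD3 and 6.93, 6.72 and 7.11 in KD4. The KD3 arrays of both channels lay above every other array.

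TSC22D3, an X-linked gene known as a target of glucocorticoids, was among the brightest genes that rose. Its log2 signal was 14.20, 14.33 and 14.70 in CTL, 16.34, 16.30 and 16.21 in KD3 and 14.77, 14.76 and 14.77 in KD4. The difference from CTL was 3.66-fold (adjusted p = 2.92e-05 from limma) and that from KD4 2.86-fold (adjusted p = 0.000923 from limma). PLAAT3, a phospholipase and acyltransferase, rose in both knock-downs and further in KD3. It read 4.94, 4.77 and 4.95 in CTL, 8.38, 8.13 and 8.08 in KD3, and 6.51, 6.53 and 6.76 in KD4, a fold of 9.94 over CTL and 3.03 over KD4. NTS, the precursor of the neuropeptide neurotensin, rose by less and with little spread, from 7.93, 7.99 and 7.89 in CTL to 8.98, 8.79 and 8.88 in KD3, with 7.87, 7.99 and 7.84 in KD4. The anion exchanger SLC26A7, the apolipoprotein APOA2 and the testis gene TEX35 rose by log2 differences from CTL of 0.90, 0.91 and 1.28, all from a CTL signal that was not well above background on every array, and a second SLC26A7 probe was not called (0.58, adjusted p = 0.252 from limma). A lincRNA probe of chromosome 10 and transcripts without a gene name made up the rest.

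The falls particular to shRNA 3 included the peptide gene CALCA and the receptor genes GRIK3 and SORCS1, all of which KD4 also lowered against CTL by the full criteria. CALCA, the gene of calcitonin and the calcitonin gene-related peptide, read 8.27, 8.40 and 8.44 in CTL, 5.31, 5.02 and 5.07 in KD3 and 6.94, 6.79 and 6.67 in KD4. It was 9.42-fold lower than in CTL and 3.17-fold lower than in KD4. A second CALCA probe, with a mean of 3.43 in CTL and 3.80 in KD3, was not called (adjusted p = 0.491 from limma). GRIK3 was 2.12-fold lower in KD3 than in KD4 on its brightest probe, while its other probes had log2 differences between the hairpins of -0.35 and -0.27 that did not pass. SORCS1, a sorting receptor of the VPS10 family, fell on both of its probes. The brighter read 9.20, 9.61 and 9.52 in CTL, 7.31, 7.24 and 6.86 in KD3 and 8.25, 8.29 and 8.30 in KD4, and the KD3 arrays lay below all others. TMEM132B, a transmembrane protein, was also called on both of its probes. On 1 of them no KD3 array was well above background, and it was at least 5.81-fold lower than in CTL and at least 2.94-fold lower than in KD4, while on the other 1 of 3 KD3 arrays was.

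MIEF1, a receptor of the outer mitochondrial membrane that regulates fission, was called on 1 of 3 probes. On that probe it read 10.68, 10.74 and 11.04 in CTL, 9.25, 9.68 and 9.35 in KD3 and a mean of 11.38 in KD4, a 3.89-fold difference between the hairpins (adjusted p = 0.000496 from limma). The other probes had log2 differences of KD3 from CTL of 0.28 and 0.29 and from KD4 of 0.01 and 0.00. The probes of MIEF1 thus disagreed, and the gene as a whole is not shown to have fallen. The paralogous proteases FAM111A and FAM111B, neighbours on chromosome 11, fell together. FAM111B read 9.91, 10.25 and 10.33 in CTL, 8.92, 8.81 and 8.77 in KD3 and 9.68, 9.79 and 9.79 in KD4, and FAM111A, with a mean of 5.39 in CTL, differed by -1.19 from CTL and by -0.98 from KD4 on the log2 scale. For both genes the KD3 arrays were the lowest of the 9. The spectrin SPTBN4 (-1.22 from CTL and -1.14 from KD4) and the protease inhibitor SPINT1 (-1.36 and -0.88) also fell. USHBP1, dim on every KD3 array, was at least 2.13-fold lower than in CTL and at least 2.28-fold lower than in KD4. SPTBN4 was called against both groups on 1 of its 3 probes. Outside the 15 largest falls were CD247, a chain of the T cell receptor complex, NMNAT2, an enzyme of NAD synthesis in axons, and CAPN6.

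**Figure D2:**
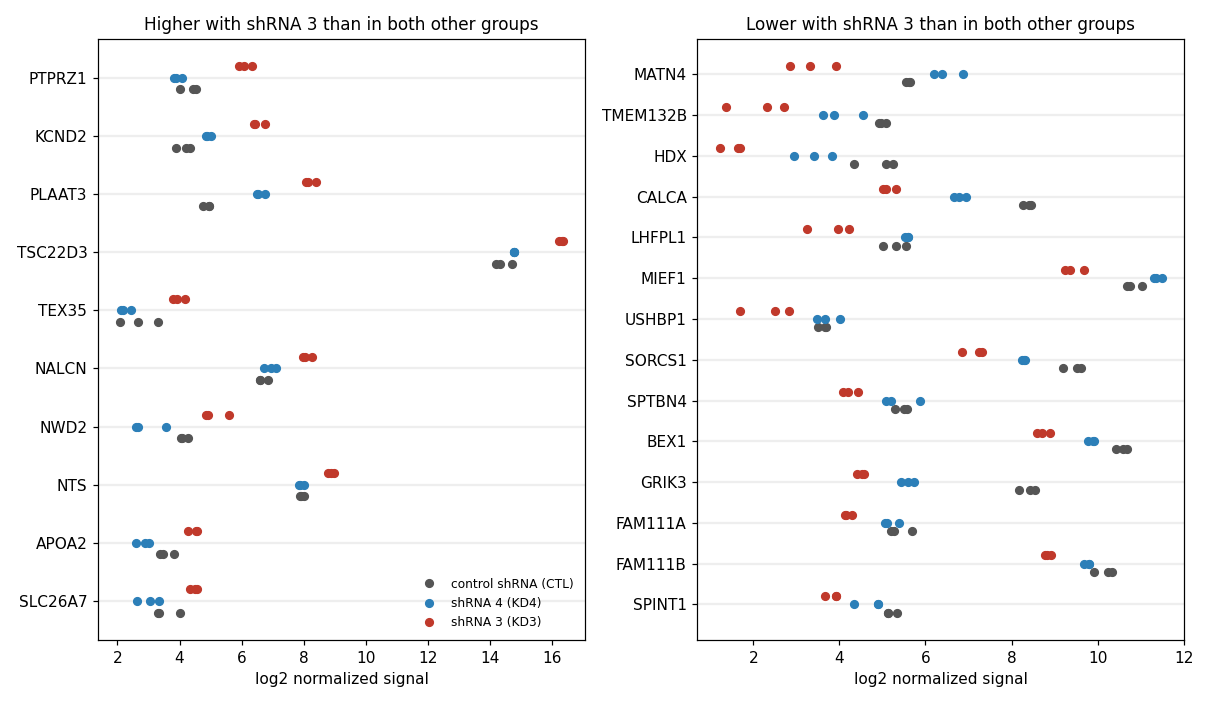
Log2 normalized signal on each array of the named genes that KD3 raised (left) or lowered (right) against both CTL and KD4, up to 15 probes in each direction in the order of the smaller of the 2 differences. Each row shows 3 arrays of KD3, KD4 and CTL, and TSC22D3 lies above 14 while the other rises lie below 10.

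X-linked genes were on both sides of this list. TSC22D3 was the 1 X-linked gene that was higher in KD3 than in both other groups. HDX, a homeodomain protein, LHFPL1, a member of a family of membrane proteins, the adaptor BEX1 and the calpain-related CAPN6 were lower. HDX, dim on every KD3 array, was at least 5.77-fold lower than in CTL and at least 2.04-fold lower than in KD4, and KD4 was itself lower than CTL (-1.50, adjusted p = 0.00518 from limma). BEX1 read 10.42, 10.59 and 10.68 in CTL, 8.88, 8.71 and 8.60 in KD3 and 9.91, 9.77 and 9.90 in KD4. LHFPL1 read 5.02, 5.55 and 5.33 in CTL, 4.23, 3.98 and 3.24 in KD3 and 5.60, 5.60 and 5.53 in KD4. CAPN6 read 7.25, 7.40 and 7.34 in CTL, 6.50, 6.53 and 6.39 in KD3 and 8.05, 8.08 and 7.91 in KD4, so that CTL lay between the hairpins.

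The genes that the hairpins moved in opposite directions from CTL were NWD2 and MATN4. MATN4, a matrilin, read 5.54, 5.63 and 5.61 in CTL, 2.86, 3.92 and 3.32 in KD3 and 6.38, 6.88 and 6.20 in KD4, and the difference between the hairpins was -3.12 on the log2 scale (adjusted p = 0.0011 from limma). It was well above background on 1 of 3 KD3 arrays. NWD2, a protein with WD repeats, read 4.27, 4.04 and 4.08 in CTL, 5.60, 4.91 and 4.85 in KD3 and 3.55, 2.66 and 2.61 in KD4, a difference of 2.18 (adjusted p = 0.00798 from limma). The arrays of the 3 groups did not overlap for either gene. NWD2 lost its call against CTL in 5 of the 9 fits without an array, those without any 1 of the CTL arrays or without KD3 replicate 1 or 2.

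The X chromosome carried 51 of the 230 named genes that rose with shRNA 3, 22.2% against 3.78% of the named genes tested. Counted by the brightest probe, 50 of 608 X-linked genes rose, 8.22% against a background of 1.15% of all genes. In the same count 14 fell, 2.30% against 2.19%. That background includes probes without a gene name. Of 15474 named genes of other chromosomes, 158 rose and 491 fell, and 4.19% were called, against 10.5% of the X-linked genes. Among the 50 X-linked genes that rose, 40 were not called between the hairpins, 9 were lower in KD3 than in KD4 and 1 was higher. The 9 included ITM2A, KLHL4, CYSLTR1 and SPANXN5, and of the 14 that fell 4 were lower in KD3 than in KD4. The median log2 difference of X-linked genes from CTL was 0.071 in KD3 and 0.090 in KD4.

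The autosomes were then compared by the median of their genes on each array, relative to the gene's mean over all arrays and to the array's median over all genes. Chromosomes 8 and 20 had the largest differences between the hairpins, with medians of KD3 minus KD4 of 0.122 and -0.104. The other chromosomes stayed within 0.094 on the log2 scale, so chromosome 20 exceeded them by little. The genes of chromosome 8 stood at 0.133, 0.086 and 0.089 on the KD3 arrays, at -0.096, -0.053 and -0.051 on the CTL arrays and at -0.033, -0.044 and -0.026 on the KD4 arrays. The KD3 arrays lay above all others, though KD3 and CTL arrays did not overlap on 14 of the 23 chromosomes. On 9 of the 23 the KD3 arrays overlapped neither CTL nor KD4. Of its 556 genes, 67.3% were higher in KD3 than in CTL, with a median log2 difference of 0.139 in KD3 and 0.016 in KD4. Called rises made up 3.60% of its genes against a background of 1.15%, and called falls 2.88% against 2.19%. This background is over all genes, probes without a gene name included. Of the 15474 named genes on chromosomes other than X, 158 rose and 491 fell. The genes of chromosome 20 stood at -0.132, -0.084 and -0.080 in KD3, at 0.107, 0.104 and 0.092 in CTL and at -0.010, -0.004 and -0.014 in KD4, so that the 3 groups did not overlap. Of its 458 genes 20.3% were higher in KD3 than in CTL, the median log2 difference was -0.204 in KD3 and -0.095 in KD4, and 25 genes fell (5.46%) while 1 rose. Within slide 1 and slide 2 the medians were 0.107 and 0.169 for chromosome 8 and -0.193 and -0.223 for chromosome 20. The exact permutation test of KD3 against CTL gave p = 0.1 for each (two-sided), the smallest it allows, and these chromosomes were chosen after all 23 had been seen.

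**Figure D3:**
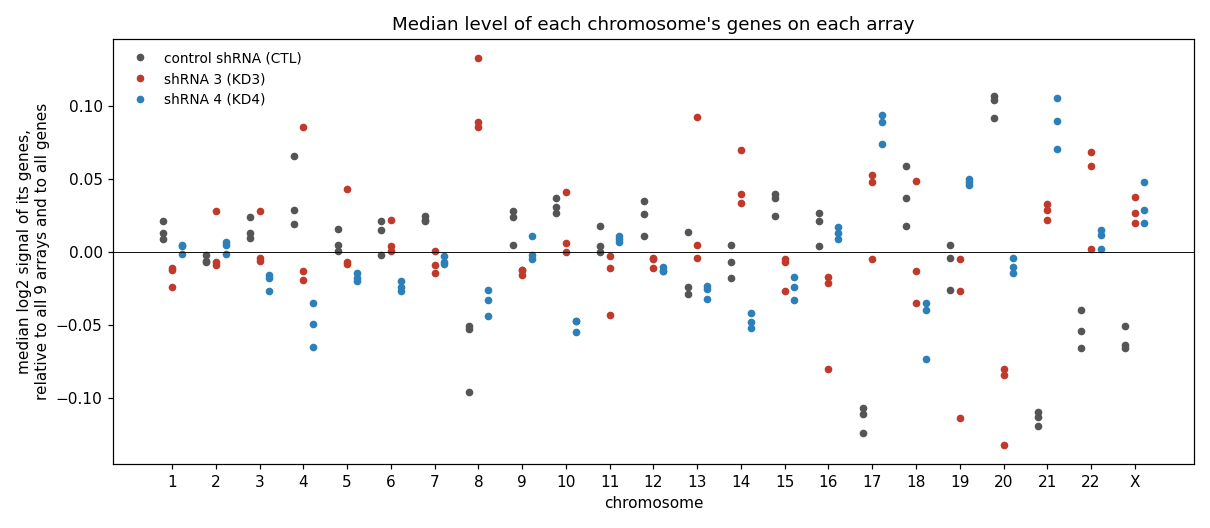
Median log2 signal of the named genes of each chromosome on each array, relative to the mean of all 9 arrays and to the median of all genes. The KD3 arrays lie highest on chromosome 8, between 0.086 and 0.133, and lowest on chromosome 20, between -0.132 and -0.080.

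In the order of the genes along the chromosomes, the difference from CTL was not spread in the same way on both. In blocks of 50 neighbouring tested genes, the median of KD3 minus CTL on chromosome 8 was 0.064 and 0.072 in the first blocks, between 0.130 and 0.251 in blocks 3 to 9, and 0.013 and -0.033 in the last. All 9 blocks of chromosome 20 were negative in KD3, between -0.315 and -0.104, and also in KD4, between -0.161 and -0.006. On chromosome 8 the blocks of KD4 ran from -0.095 to 0.082. Over all 310 blocks, 36 were above 0.1 and 39 below -0.1. Chromosome 17 had 19 of 19 blocks above 0 in KD3 (0.039 to 0.251) and in KD4 (0.102 to 0.291), with a median difference from CTL of 0.120 in KD3 and 0.188 in KD4. Whether gene copy number or any other property of the cell populations differed between the groups was not tested. Particular to KD3 by the criteria above were SLC26A7 on chromosome 8 and MATN4 on chromosome 20, and the other named genes lie elsewhere.

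**Figure D4:**
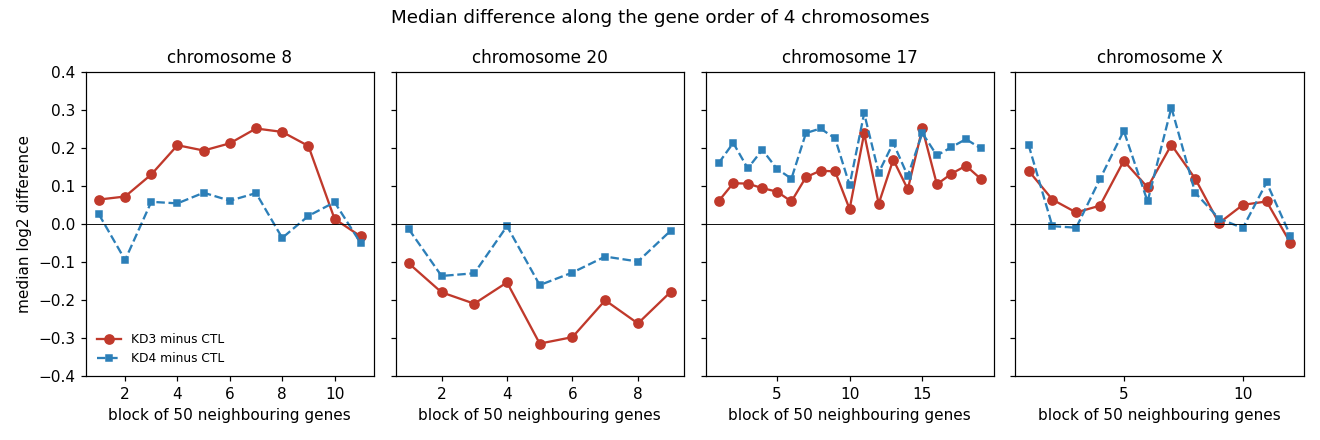
Median log2 difference from CTL in blocks of 50 neighbouring tested genes along chromosomes 8, 20, 17 and X, for KD3 (circles) and KD4 (squares). KD3 lies above KD4 over the middle of chromosome 8 and below it on all of chromosome 20.

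Gene lists were read on the brightest probe of each gene, where 3.35% of all genes were called (1.15% rose and 2.19% fell), 0.439% were called between the hairpins and the median log2 difference was 0.009. Of 15474 named genes on chromosomes other than X, a closer match to the lists, 4.19% were called, 158 higher and 491 lower. The first lists hold X-linked gene families, protocadherins and imprinted genes, and were chosen with earlier results of these data known. Of 20 tested BEX, TCEAL, MAGE and NAP1L genes of the X chromosome, 6 rose and 1 fell, with a median of 0.347, and BEX5, MAGEH1, NAP1L3 and NAP1L2 were the largest rises. In KD4 7 of them rose and 0 fell, with a median of 0.473. BEX5 and MAGEH1 were called lower in KD3 than in KD4, by log2 differences of -3.78 and -1.58. Of 21 clustered protocadherins, genes of neuronal cell-surface identity, 6 rose and 0 fell. PCDHB2 rose by 1.60 in KD3 and by 2.69 in KD4, and PCDHB14, above background on 1 of 3 CTL arrays, by 2.19 and 2.88. PCDHB16 and PCDHA10, dim on every CTL array, were at least 2.89-fold and 2.67-fold higher in KD3. For PCDHB2 and PCDHB16 KD3 was called lower than KD4. Of 10 non-clustered protocadherins, PCDH1 (-1.51) and PCDH8 (-1.13) fell, and 1 probe annotated to PCDH11Y rose (1.56), which cannot be told apart from its near-identical X-linked copy. Of 53 imprinted genes, 2 rose and 7 fell, among them PHLDA2 (1.35), KCNQ1 (-1.50), GDAP1L1 (-1.71) and IGF2 (-1.15). In KD4 1 rose and 7 fell.

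Of 35 HOX genes, the homeobox factors of positional identity, 4 rose and 0 fell, 29 had a positive difference and the median was 0.309 in KD3 and 0.357 in KD4. HOXA13 rose from a mean of 10.35 to 11.57, HOXB4 from 9.17 to 10.24, and HOXB8 and HOXB5 by 1.02 and 0.93. The HOXB genes lie on chromosome 17, whose genes were higher in KD3 as a whole. Of 30 SOX and KLF factors, KLF8 (5.65, with 2 of 3 CTL arrays above background) and SOX11 (2.05) rose and SOX3 (-1.39) fell. SOX11 rose further in KD4, by 5.71, and was called lower in KD3 than in KD4 (-3.66). Of 43 Wnt pathway genes, 2 rose and 5 fell, including the antagonist WIF1 (-1.53), the ligand WNT6 (-1.10) and the receptor FZD6 (1.04). Of 27 Notch pathway genes, DLK2 (-1.28), HES2 (-1.04), JAG2 (-0.90) and HES7 (-0.88) fell and 0 rose. Of 46 genes of the TGF-beta and BMP pathway, the activin antagonist FST (-1.70) and LEFTY1 (-0.93) fell, 4.35% of the list. In KD4 2 Wnt genes rose and 6 fell, 4 Notch genes fell, and 1 TGF-beta and BMP gene rose and 4 fell. Between the hairpins 0 Wnt, Notch or TGF-beta and BMP genes were called. Of 29 prostaglandin and retinoid genes, the cyclooxygenase PTGS2 (1.66) and the retinoic acid receptor RARB (1.04) rose, STRA6 fell, and the prostaglandin synthase PTGES was at least 2.27-fold lower.

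Over all genes more were called lower than higher. Of 36 potassium channels, 9 fell and 2 rose in KD3, with a median of -0.309. In KD4 10 fell and 2 rose, with a median of -0.358, and 2 were called between the hairpins. KCNH2, the channel of the rapid delayed rectifier current, dropped in KD3 from a mean of 9.11 to 7.48 on its brighter probe. A dimmer probe was not called (-0.17). KCNJ4 (-1.70) and KCNMA1 (-1.69) also fell, against the rise of KCND2. Of 66 axon guidance genes, 7 fell, among them SEMA5B (-2.16) and SLIT1 (-1.26), PLXNC1 was at least 2.65-fold lower, and UNC5D rose. Of 24 glutamate and GABA-A receptor subunits, GRIK3 fell and GABRE (0.96) rose. Of 43 collagens, laminins and matrix genes, 4 fell and 0 rose, COL12A1 (-1.94), COL13A1 (-1.06), LAMA1 (-1.02) and COL4A3 (-0.90), with a median of -0.328. Of 25 integrin subunits, ITGA4 (-2.26 on its brightest probe) and ITGB4 (-1.51) fell and 0 rose, while 15 had a positive difference and the median was 0.032. In KD4 7 axon guidance genes fell and 1 rose, 5 collagen, laminin and matrix genes fell, and 3 integrin subunits fell. Between the hairpins 0 axon guidance, matrix or integrin genes were called.

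**Figure D5:**
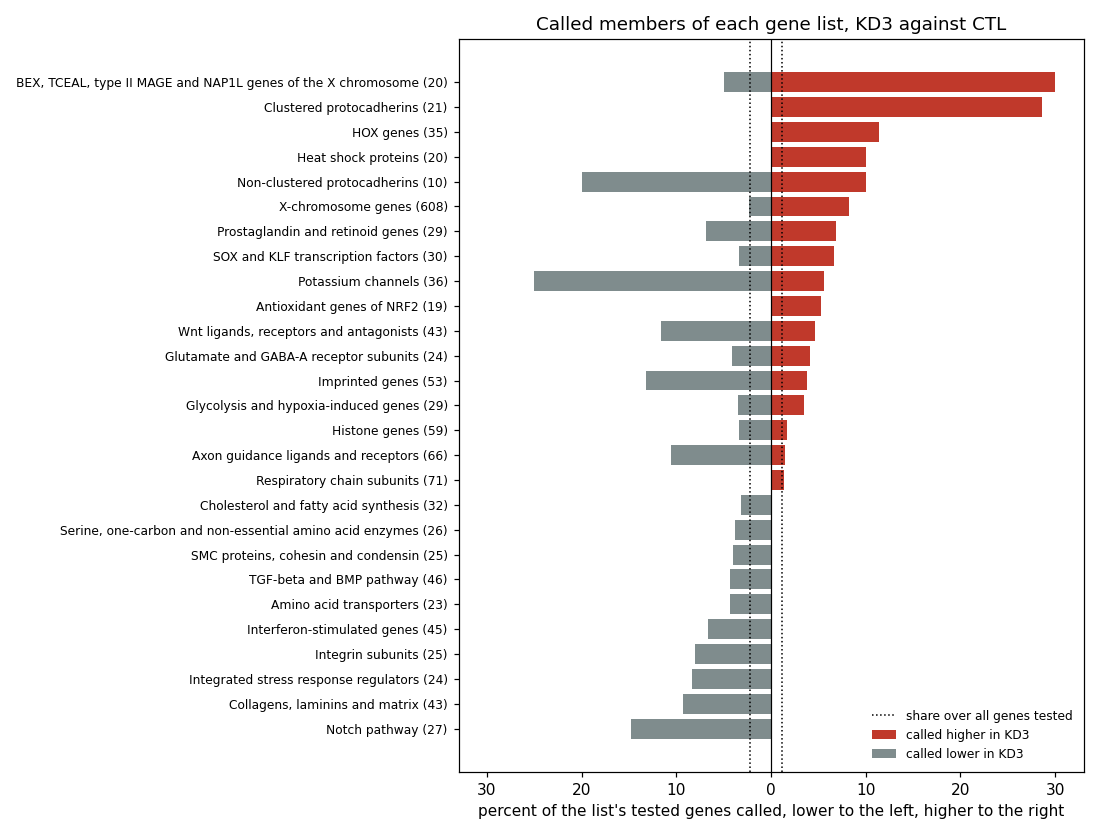
Percent of each list's tested genes (number in brackets) called higher in KD3, to the right, or lower, to the left, against CTL, for the lists with at least 1 call. Dotted lines mark the shares over all genes tested, probes without a gene name included, 1.15% higher and 2.19% lower.

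In the stress and metabolic lists the share of genes that passed both criteria varied, against 3.35% of all genes. It was 10% of heat shock proteins, 8.33% of integrated stress response regulators, 6.9% of glycolysis and hypoxia genes and 6.67% of interferon-stimulated genes. The other lists of this paragraph had shares from 1.41% to 5.26%. Of 20 heat shock proteins, 2 passed both criteria and 17 had a positive difference. By the adjusted p alone 13 rose (9.47% of all genes did), and the median was 0.360 in KD3 and 0.509 in KD4. HSPA1A rose from a mean of 13.24 to 15.20 and HSPA1B from 14.47 to 15.48, and these near-identical genes cannot be told apart with certainty. Of 24 regulators of the integrated stress response, CHAC1 (-1.25) and DDIT4 (-0.96) fell, 0 rose, 3 had a positive difference, and the median was -0.332 in KD3 and -0.595 in KD4. Of 45 interferon-stimulated genes, BST2 (-1.97), IFI44L (-1.53) and IFITM1 (-1.29) fell and 0 rose, while in KD4 5 fell and 0 rose. Single members passed in the lists of NRF2 antioxidant genes (HMOX1, 1.19), respiratory chain (NDUFA5, 1.06), amino acid transporters (SLC7A7, -1.51), serine and one-carbon enzymes (ASS1, -1.15) and cholesterol and fatty acid synthesis (FADS1, -0.87). In glycolysis PGAM1 rose (1.65) and ENO2 fell (-0.90), and the called genes among 59 histone genes included H2BC12, which rose (0.94), and H1-3, which fell (-0.96).

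In several lists 0 genes passed both criteria. Of the small RNA pathway, which processes the hairpins, 0 of 15 genes did, with DICER1 at 0.48 (adjusted p = 0.00839 from limma) and TNRC6B at 0.45. The same held for 15 DNA methylation genes (ZBTB33, 0.46, and TET2, 0.35), 30 Polycomb genes (BMI1, 0.80, and RNF2, 0.52), 38 genes of DNA replication and mitosis (CDC6, 0.67, and GINS1, -0.39), 23 p53 targets (EDA2R, 0.71, and TP53INP1, 0.56), 21 genes of the unfolded protein response (DNAJB9, 0.70, and DNAJC3, 0.61) and 20 aminoacyl-tRNA synthetases (AARS1, -0.59, and CARS1, -0.43). By limma's adjusted p without the fold, 9.47% of all genes were higher and 10.5% lower. Of the 15 small RNA pathway genes 5 were higher and 1 lower, of 15 DNA methylation genes 3 and 1, and of 30 Polycomb genes 6 and 2. Of 21 unfolded protein response genes 4 were higher and 0 lower, and of 23 p53 targets 4 and 5. Of 38 replication and mitosis genes 1 was higher and 3 lower, and of 20 aminoacyl-tRNA synthetases 1 and 5. By the unadjusted p between 2 and 9 genes of each list were higher and between 0 and 8 lower, without a share over all genes to set beside them. Of 25 SMC, cohesin and condensin genes, SMCHD1 itself was the 1 that was called.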

How the data were processed

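RNA of the KD3, KD4 and CTL populations of HEK293 cells was measured on 3 arrays per group. The authors deposited scanner files with the green intensity of each spot, background-subtracted and detrended by Agilent Feature Extraction 10.10 per the labels, and a table of log2 values that the authors normalized over the 9 arrays, used here as an alternative. Control and outlier spots were left out, quantile normalization (the methods write quintile) was applied to the log2 processed signals with limma 3.58.1 under R 4.3.3, and repeated spots were averaged. The limma model was fitted to all 9 arrays with 3 group means. A call needed a Benjamini-Hochberg adjusted p under 0.05 and a fold of at least 1.8. The number of arrays limits the precision, and the median standard error of a log2 difference was 0.108.

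Named genes were the 12 largest changes in each direction, up to 5 dim probes and 15 genes particular to KD3 in each direction, and up to 4 members of each of 33 lists. The members and lists were chosen with earlier results of these data known. Probes were named by their RefSeq accessions through a table of human genes, of which only names, chromosomes and gene order were used. Some genes that the rule would name are not reported here. Transcript sequences that could pair with the hairpins were not analysed here. Alternatives were 75th percentile scaling, normexp with an offset of 50, the authors' values, other filters, the methods' t-test, fits of 2 groups, replicate number or slide as a block, no fold threshold, the brightest probe, leaving out each array, and, chosen after seeing the data, each slide alone.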

Additional observations from a re-analysis of the deposited data

Results flagged for a closer look

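The change from CTL differed between shRNA 3 and shRNA 4 at 135 genes, by the direct test of KD3 against KD4 (adjusted p under 0.05 from limma and a fold of at least 1.8). MATN4 moved in opposite directions from CTL with the 2 hairpins, with a log2 difference of -3.12 between KD3 and KD4. NWD2 did so the other way round, with a difference of 2.18. No group has the 4 arrays that a test of a lone array needs.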

How the results depend on the processing

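The decrease of SMCHD1 with shRNA 3 kept its direction under every alternative run, and on its brightest probe it lost the call only within slide 2 (-0.842, adjusted p = 0.033 from limma), where the fold fell short of the threshold and CTL has 1 array, assumed to vary like the other groups. Leaving out 1 array gave -1.024 to -0.905 for SMCHD1, 912 to 1031 genes for KD3 against CTL, 103 to 143 for KD3 against KD4, and 26 to 31 for the genes called in KD3 against both. For these 3 counts in that order, normexp background correction gave 354, 35 and 7 genes, and dropping the fold threshold gave 5825, 754 and 251. After Benjamini-Hochberg adjustment the methods' t-test gave 250, 0 and 0, and without it 941, 189 and 36. Within slide 1 the last 2 counts were 24 and 8, and within slide 2 43 and 10, each with at least 1 group of 1 array. Of 135 gene results against CTL, 55 lost their call under normexp and 76 under the adjusted t-test, and 0 reversed. Same-numbered arrays of KD3 and CTL had deviations with correlations of -0.078, -0.009 and -0.022, those of KD3 and KD4 of 0.143, -0.050 and 0.014, and those of KD4 and CTL of 0.128, 0.143 and 0.074. Since not every pair was above 0.1, the numbers were not taken to pair the arrays. Each KD4 array correlated better with the CTL array of its own number than with the others, a hint from the data and not from the design. With the replicate number as a block the counts were 982, 107 and 26 and SMCHD1 stood at -0.971 (limma adjusted p = 0.00214). The other scalings, filters, the slide as a block and the authors' values kept these counts within 1.5 times. The number of arrays and the signal over background limit calls of dim probes.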
